A study of Mus musculus with 7 samples.

Results

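The genes described here are the ligands and receptors of axon guidance whose promoter lies under a peak of histone H3 lactylated at lysine 18 (H3K18La) in the postnatal mouse retina. They were taken by gene symbol from 9956 protein-coding genes with a promoter peak: all symbols that start with Sema, Plxn, Epha, Ephb, Efna, Efnb, Robo or Unc5, or with Slit and a digit, and Ntn1, Ntn4, Dcc, Nrp1 and Nrp2. A promoter peak was a merged peak annotated to the promoter of a protein-coding transcript, and where a gene had several, the peak nearest the transcription start site (TSS) was used. The rule found 39 genes, 17 coding for ligands and 21 for receptors. The remaining gene, Unc50, shares its first letters with the Unc5 receptors and is not a guidance receptor, so it was left out of the family counts. Another 26 genes of these families had peaks but none at the promoter of a protein-coding transcript, among them Ntn1, Nrp1, Nrp2, Robo2, Slit3 and Sema6a.

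H3K18La was mapped by CUT&Tag, where a transposase held at the mark by an antibody inserts sequencing adapters into nearby DNA. Retinas of C57Bl/6J mice were taken at postnatal days 4, 10 and 28 (P4, P10 and P28) and dissociated to cells, so each library is an average over all retinal cell types and over whatever cells remained attached to the tissue. There were 2 libraries of P4, 2 of P10 and 3 of P28, with no treatment or genetic change in any group. P28 replicate 1 was the only library labelled as batch 2, and all others were batch 1. Nothing in the labels ties a library to particular animals, so the tests below measure the spread between libraries. Values are RPKM, reads scaled by the length of the peak and by a normalized library size, so levels of different genes are compared per length.

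Depth and signal differed with age. Reads in peaks ranged from 295383 to 358971 at P4, from 199970 to 660740 at P10 and from 1615969 to 8274373 at P28. Reads in peaks amounted to 16.3% and 17.6% of the normalized library size at P4, 36.1% and 52.1% at P10 and 42.4% to 57.1% at P28. This share holds any normalization factor and is not a share of the sequenced reads, whose totals were not used. The median member held 7 and 6 reads at P4, 3 and 9 at P10, and 19, 93 and 40 at P28. An age at which every library held 3 reads or fewer is called at the floor for that gene, and 10 of the 39 members were at the floor at P4 and 11 at P10. Markers of retinal cell types were read at their own promoters as a check of the tissue. Of 10 rod genes 7 had a promoter peak, and all 7 were called higher at P28 than at P4, with a median change of 2.43 on the log2(RPKM + 1) scale. Fewer markers of other cells were called higher: 1 of 5 bipolar, 0 of 4 amacrine and horizontal, 1 of 5 ganglion cell, 1 of 6 Müller glia, 2 of 4 progenitor, 0 of 3 pigment epithelium, 0 of 4 vascular and 0 of 1 microglial genes with a promoter peak, and none was called lower on the deposited scale. Among all promoter genes 32.8% were called higher. After scaling each library to its reads in peaks, 3 of the 7 rod genes, 1 bipolar and 1 ganglion cell gene were called higher, and 2 amacrine and horizontal, 2 ganglion cell, 1 Müller glia, 1 pigment epithelium and 1 vascular gene were called lower. Among all promoter genes 6.98% were then called higher and 3.33% lower. The ganglion cell markers, of the cells whose axons these molecules guide, had a median change of -0.65, against 1.34 over all promoter genes. In 3 of the 5 every P28 library was below both P4 libraries, against 4.66% of all promoter genes. The summed RPKM of these markers was at most 12.3 at P4, 10.5 to 20.4 at P10 and 16.7 to 17.9 at P28. The marker called higher was Nefh (2.55), and Thy1 changed by 1.18 without passing the test. Without Nefh (a sum made after its values were seen) the summed RPKM was 11.1 and 9.14 at P4, 6.85 and 8.82 at P10 and 6.92, 6.11 and 5.80 at P28. The summed RPKM of the rod markers was 17.1 in the lower P4 library, 131 to 155 at P10 and 96.0 to 140 at P28. The part of these shifts in the results below was not tested. In whole retina, fewer cells of a type and less of the mark per cell cannot be told apart.

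Growing axons steer by molecules that attract or repel them, and most of these belong to a few pairs of families. Semaphorins act through plexins, the secreted class 3 members mostly with neuropilins as co-receptors. Ephrins are bound to the cell surface and are read by Eph receptor tyrosine kinases on neighbouring cells. Slits repel growth cones through Robo receptors, and netrins attract through Dcc or repel through Unc5 receptors. In the retina these molecules guide ganglion cell axons to the optic disc and onward to the brain, order their endings into a map, and sort the neurites of the inner retina into layers. Histone lactylation adds a group derived from lactate to a lysine, and H3K18La is known as a mark of active promoters and enhancers.

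To show what lies under the peaks, the promoters of 6 members are printed below, from 250 bases before to 50 bases after the TSS (RefSeq, GRCm38.p6). Where a gene had several entries, the one with its TSS nearest the middle of the peak was used. A window and its counts therefore describe a single start site, and other starts under the same peak were not read. The first 3 are those with the largest changes from P4 to P28 among called members with an entry (Sema6c, Epha7 and Unc5a), and the last 3 those with the smallest changes (Robo3, Robo1 and Slit2). Capitals mark the GC box, GGGCGG or its reverse complement CCGCCC, with overlapping matches counted separately.
Sema6c: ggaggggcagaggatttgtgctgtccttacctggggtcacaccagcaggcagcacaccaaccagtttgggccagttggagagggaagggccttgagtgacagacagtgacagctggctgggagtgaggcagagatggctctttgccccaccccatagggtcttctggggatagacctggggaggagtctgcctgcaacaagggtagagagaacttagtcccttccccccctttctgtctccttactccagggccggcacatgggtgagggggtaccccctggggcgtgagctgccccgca
Epha7: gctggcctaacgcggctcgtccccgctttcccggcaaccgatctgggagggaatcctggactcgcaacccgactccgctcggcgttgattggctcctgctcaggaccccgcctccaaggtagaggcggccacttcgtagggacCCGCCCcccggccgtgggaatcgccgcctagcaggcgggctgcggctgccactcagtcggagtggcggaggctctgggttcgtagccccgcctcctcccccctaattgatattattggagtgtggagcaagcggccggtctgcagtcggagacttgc
Unc5a: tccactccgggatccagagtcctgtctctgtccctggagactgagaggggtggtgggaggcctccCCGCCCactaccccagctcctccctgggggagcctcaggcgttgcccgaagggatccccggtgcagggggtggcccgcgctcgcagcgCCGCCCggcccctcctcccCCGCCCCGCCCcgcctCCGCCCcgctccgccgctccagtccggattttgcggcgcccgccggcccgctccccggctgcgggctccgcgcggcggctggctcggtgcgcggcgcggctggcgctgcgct
Robo3: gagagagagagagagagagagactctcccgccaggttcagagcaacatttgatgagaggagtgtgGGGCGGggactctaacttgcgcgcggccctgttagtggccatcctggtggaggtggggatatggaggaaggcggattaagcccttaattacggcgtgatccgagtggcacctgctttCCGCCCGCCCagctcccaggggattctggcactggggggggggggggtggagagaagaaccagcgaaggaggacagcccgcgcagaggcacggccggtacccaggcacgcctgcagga
Robo1: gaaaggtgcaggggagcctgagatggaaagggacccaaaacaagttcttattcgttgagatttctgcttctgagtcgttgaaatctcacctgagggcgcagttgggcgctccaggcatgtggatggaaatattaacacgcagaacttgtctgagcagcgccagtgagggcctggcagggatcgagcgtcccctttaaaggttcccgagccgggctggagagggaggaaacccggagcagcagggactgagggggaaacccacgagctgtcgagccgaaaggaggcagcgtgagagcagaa
Slit2: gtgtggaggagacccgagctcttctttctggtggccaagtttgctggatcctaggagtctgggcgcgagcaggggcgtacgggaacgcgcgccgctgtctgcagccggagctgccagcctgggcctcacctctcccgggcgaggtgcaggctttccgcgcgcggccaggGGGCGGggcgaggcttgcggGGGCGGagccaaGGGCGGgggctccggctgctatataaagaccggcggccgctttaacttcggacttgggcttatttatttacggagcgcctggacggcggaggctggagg

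The Sema6c window lies at chr3:95164089-95164388 (plus strand), that of Epha7 at chr4:28812881-28813180 (plus) and that of Unc5a at chr13:54949161-54949460 (plus). The Robo3 window lies at chr9:37433126-37433425 (minus strand), that of Robo1 at chr16:72662899-72663198 (plus) and that of Slit2 at chr5:47982905-47983204 (plus). The windows of Sema6c, Epha7, Unc5a and Slit2 lay wholly inside the peak, while 240 of the 300 bases of Robo3 and 215 of those of Robo1 did. The Sema6c promoter was poor in CpG, with 3 CpG dinucleotides and no GC box, whereas Unc5a had 37 CpGs and 5 GC boxes at a GC content of 78.3%. Slit2, whose P28 libraries were below both P4 libraries, had 30 CpGs and 3 GC boxes, and Epha7 had 28 CpGs and 1 GC box. An entry that overlapped the peak was found for 31 of the 39 members and for 7109 of all 9956 genes, and Dcc, Plxna1, Plxna4, Sema3a, Sema3f, Sema4d, Slit1 and Unc5d had none. Of the 31 member promoters 23 held a GC box on either strand (74.2%), against 68.2% of all 7109. The letters TAATCC, the core bound by the photoreceptor factors CRX and OTX2, occurred on either strand in 1 member promoter, that of Robo3, against 5.73% of all. The median member promoter had a GC content of 66.7% and 24.0 CpGs, against 62.0% and 22.0 over all. Sema6c had the fewest CpGs of the 31, followed by Sema4a with 4, Sema4f with 7, and Sema3d and Sema3g with 8 each.

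The peaks were wide relative to these windows. Member peaks spanned 368 to 3249 bases with a median of 1530, against a median of 1151 over all 9956 genes. In 37 of the 39 members the peak overlapped the annotated TSS; the exceptions were Epha10 and Plxna1. The peak of Unc50 also held a start site of another protein-coding gene, Coa5, and those of Epha4, Sema4c and Unc5c held the start of a noncoding gene, so the signal there cannot be assigned to either start alone.

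The first comparison asked which guidance promoters gained or lost H3K18La between the early postnatal and the mature retina. From P4 to P28, 13 members rose and none fell on the deposited scale, and the other 26 did not pass the test (limma, Benjamini-Hochberg adjusted p under 0.01 over all 108253 peaks). Among all 9956 promoter genes 32.8% were called higher and 0.281% lower, so the count of members called is close to the background. The members that rose were the semaphorins Sema6c, Sema3f, Sema4c and Sema4b, the plexins Plxnd1, Plxna2, Plxnb1 and Plxnb2, the Eph receptors Epha7 and Ephb2, and the netrin receptors Dcc, Unc5a and Unc5b. By role, 9 of 21 receptors and 4 of 17 ligands rose, while after scaling to reads in peaks 1 receptor was called higher and 5 lower, and 3 ligands higher and 3 lower, beside 6.98% and 3.33% of all promoter genes. At an unadjusted p under 0.05 there were 18 members higher and 0 lower, against 64.6% and 1.74% of all promoter genes, and limma voom on the recovered reads called 16 higher and 0 lower, against 52.6% and 1.52%.

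The median change over members was 0.85 on the log2(RPKM + 1) scale, against 1.34 over all promoter genes, with a range from -1.04 to 3.57. Every P28 library was above both P4 libraries in 26 members, against 79.3% of all genes, and every P28 library was below both in 8 members, against 4.66%. Each change was tested against 0 and not against this shift of 1.34. A peak had to be called at some age to be in the merged set, so for Dcc, Epha7, Epha10 and Sema6c, with 1 read each over both P4 libraries, the direction of the change was partly fixed by that selection. The same limit applies to falls at any member peak that entered through P4, and the age of entry was not examined. Of the members 15 changed by more than the shift, the 13 that rose among them, and Plxnb2, with 1.42, lay close to it at the 54.0th percentile. The count moved with single libraries: 5 members were called without P4 replicate 1 and 4 without P4 replicate 2, 6 without P28 replicate 2 and 6 without P28 replicate 3. Sema6c was called under all 14 alternative settings and leave-one-out fits, Unc5a under 13, Sema3f under 12, Plxnd1 and Sema4c under 11, Plxna2 under 10, Sema4b under 8, Dcc under 7, Epha7, Plxnb1 and Unc5b under 6, Ephb2 under 5 and Plxnb2 under 3.

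**Figure D1:**
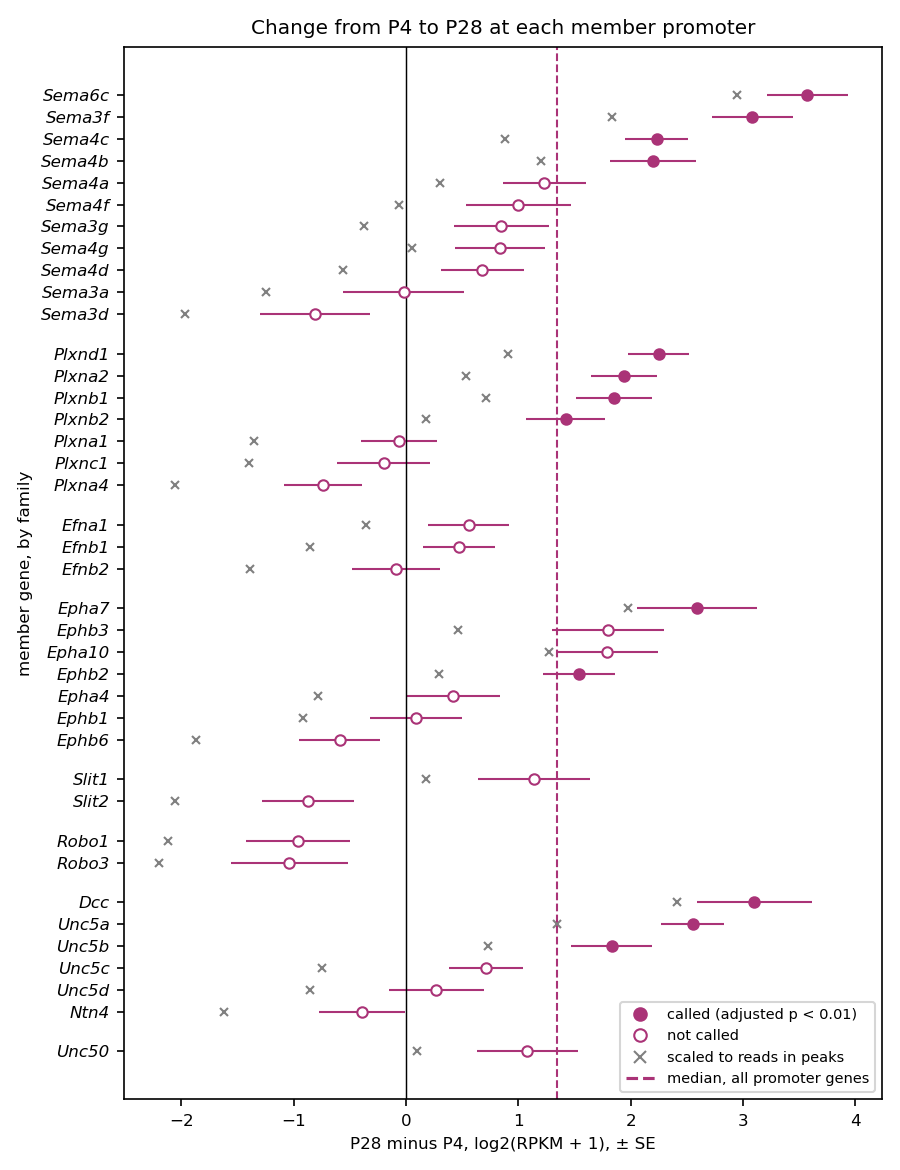
Change of H3K18La from P4 to P28 at the promoter peak of each of the 39 members, grouped by family, as the difference on the log2(RPKM + 1) scale with its standard error. Filled circles are the 13 members that passed the test, the dashed line is the median of 1.34 over all promoter genes, and grey crosses give the change after scaling each library to its reads in peaks, where the members at the lower end of most families lie well below 0.

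The share of the normalized library size that lay in peaks was lowest at P4 and moves with this comparison. When each library was scaled to its own reads in peaks, 4 members were called higher and 8 lower, against 6.98% and 3.33% of all promoter genes, and the median change was -0.06 against 0.30 over all. After quantile normalization 7 were higher and 7 lower, against 16.6% and 3.39%, with medians of 0.33 and 0.70. Sema6c, Sema3f and Unc5a were called higher under both of these scalings and on the deposited scale. Robo1, Robo3, Slit2, Plxna4, Ephb6 and Ntn4 were called lower under both and were not called on the deposited scale. Any of these peaks that entered the merged set through P4 had its direction partly fixed by that selection. A quantity that does not depend on the scale factor, apart from the pseudocount, is the level of the members relative to all promoter genes of the same library. The median member was above the median gene by 0.28 and 0.51 on the log2(RPKM + 1) scale in the P4 libraries and by 0.34 and 0.60 in the P10 libraries. At P28 the same difference was -0.30, -0.26 and -0.06. The P28 libraries did not overlap with those of the earlier ages, and the mean difference between P28 and P4 was -0.60, beyond the pooled SD of 0.151 between libraries of an age. This SD does not measure the spread over genes, and the difference was -0.44 with all libraries thinned to the smallest.

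**Figure D2:**
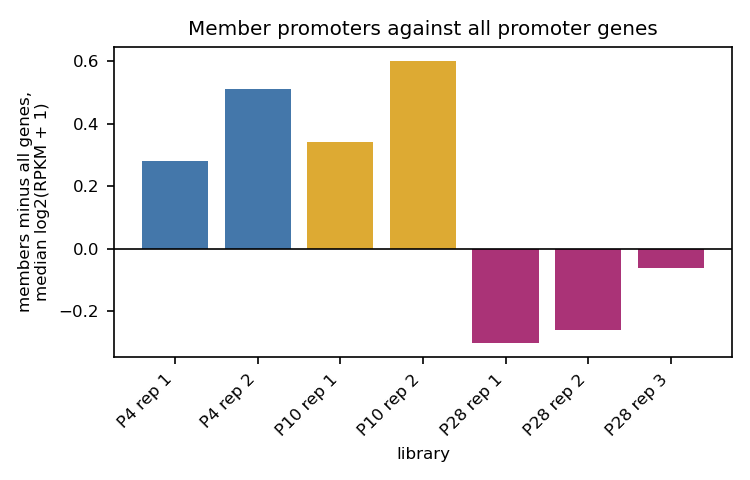
Median level of the 39 members minus the median level of all 9956 promoter genes in each of the 7 libraries, in log2(RPKM + 1). All P4 and P10 bars lie above 0, from 0.28 to 0.60, and the 3 P28 bars lie below it, from -0.30 to -0.06.

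Between P4 and P10, 6 members rose and none fell, against 11.1% and 0.924% of all promoter genes. These were Sema6c, Sema3f, Sema4c, Plxna2, Plxnd1 and Unc5a, all of which were also called from P4 to P28 (both comparisons share the P4 libraries). After scaling to reads in peaks, 3 members were called higher (Sema3f, Sema4c and Sema6c) and 3 lower (Plxna4, Plxnc1 and Robo3), against 2.26% and 5.04% of all promoter genes. After quantile normalization 2 were called higher (Sema3f and Sema6c) and 1 lower (Plxna4), against 2.28% and 1.21%. On the deposited scale the median change of the members was 0.52 and that over all genes 0.54. Both P10 libraries were above both P4 libraries in 21 members, against 45.3%, and below in 7, against 9.20%. At an unadjusted p under 0.05, 18 members were higher and 3 lower (Efna1, Plxna4 and Robo3), against 31.6% and 4.63% of all promoter genes, and voom called 10 higher and 0 lower, against 13.3% and 0.0904%. The median change of the members was 0.32 without P4 replicate 1 and 0.70 without P4 replicate 2, against 0.51 and 0.56 over all promoter genes. Without P10 replicate 1, the library with the fewest reads, it was 0.94 against 0.77.

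From P10 to P28 no member passed limma's test, and neither did any of the 9956 promoter genes (0% higher and 0% lower). At an unadjusted p under 0.05, 6 members were higher (Dcc, Efna1, Ephb3, Plxnd1, Sema3g and Sema4f) and 1 lower (Unc5d), against 38.1% and 1.84% of all promoter genes. Limma voom on the recovered reads called 2 members, Dcc and Ephb3, both higher, against 4.96% of all promoter genes in either direction. The median change was 0.22 for the members and 0.75 over all genes. Without P10 replicate 2 the median change was 0.44 for the members and 0.89 over all genes.

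**Figure D3:**
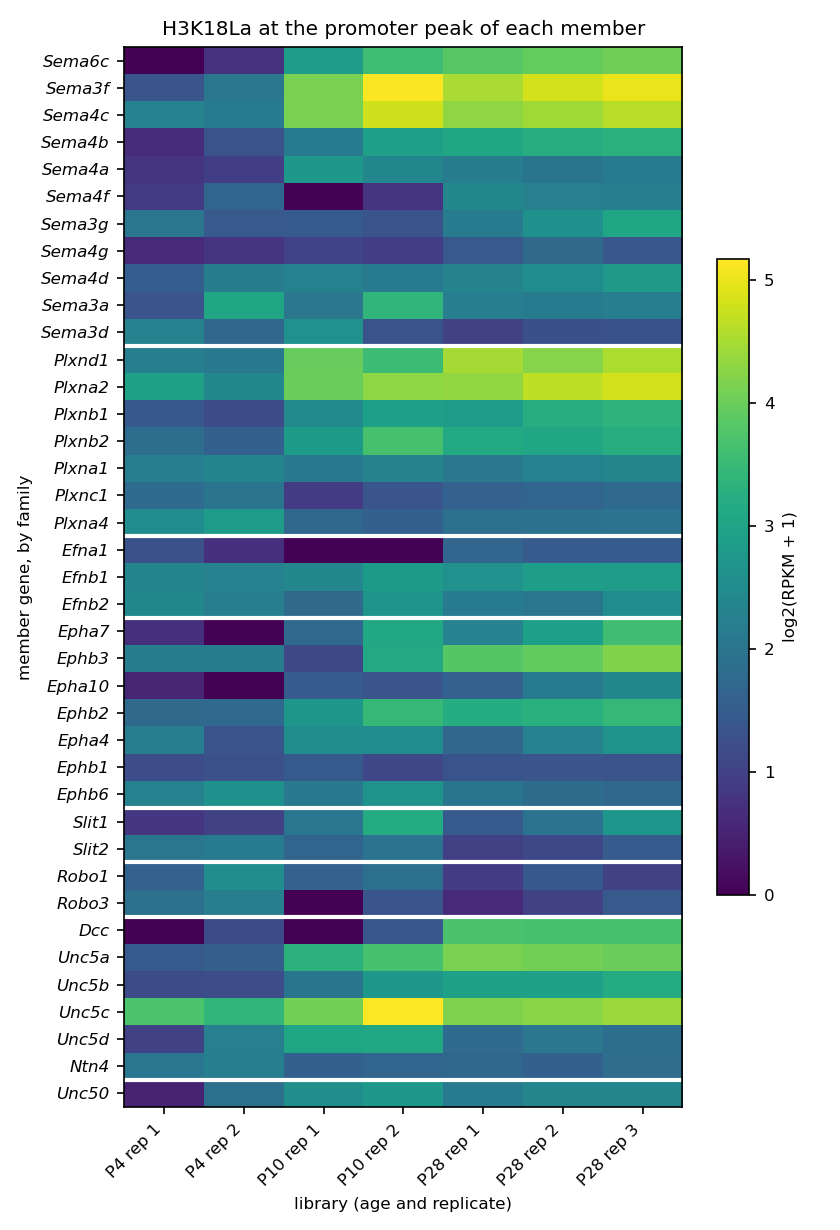
Level of H3K18La at the promoter peak of each member in each library, as log2(RPKM + 1) from dark (0) to bright, with families separated by white lines and members ordered by their change from P4 to P28 within a family. The upper rows of the semaphorins, of the plexins and of the netrin receptors are brighter at P28 than at P4, while Slit2 and the Robo rows are darker at P28 than at P4.

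Among the ligands, the semaphorins held the widest spread. Of 11 members 4 rose and none fell from P4 to P28, close to the 32.8% of all promoter genes called higher, and the median change of 1.00 was below the 1.34 over all. After scaling to reads in peaks 3 were called higher and 0 lower, against 6.98% and 3.33% of all, and the median was 0.05, again below the 0.30 over all. Sema6c, a transmembrane class 6 semaphorin (chr3:95163712-95164584), stood at 0 and 0.684 RPKM at P4, at 6.20 and 10.8 at P10 and at 13.2, 14.4 and 15.6 at P28. The 3 ages did not overlap. P4 was at the floor with 1 read in all against 328 at P28, a ratio of pooled rates of 49.1 (95% exact interval 8.76 to 1947, counting error only). The change of 3.57 ± 0.36 (SE) was the largest of the members and lay at the 99.8th percentile of all promoter genes (adjusted p = 1.80e-04, limma).

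Sema3f, a secreted repellent that acts through neuropilin-2, had the highest mean level of the members at P28. It measured 1.59 and 3.14 RPKM at P4, 16.6 and 34.5 at P10 and 21.8, 27.3 and 31.7 at P28. P4 lay below both later ages, which overlapped each other. The change from P4 to P28 was 3.08 ± 0.36 (SE, adjusted p = 3.06e-04, limma) and that from P4 to P10 was 2.93 ± 0.40 (adjusted p = 0.00111, limma), while P28 minus P10 was 0.15. Sema4c, a transmembrane ligand of plexin-B2, followed the same course. It measured 3.92 and 3.43 RPKM at P4, 16.6 and 26.7 at P10 and 19.0, 20.5 and 23.4 at P28, with a change of 2.23 ± 0.28 (SE) to P28 and of 2.24 ± 0.31 to P10. For Sema4c the difference between P28 and P10 was -0.01, and P28 lay inside the P10 range. Sema4b, the other semaphorin that rose, changed by 2.20.

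None of the other class 3 semaphorins passed the test. Sema3a, a repellent expressed by retinal neurons, measured 1.59 and 7.29 RPKM at P4, 3.15 and 9.63 at P10 and 3.66, 3.43 and 3.62 at P28. The replicates of each early age differed from each other more than the ages did, and the change of -0.02 changed sign in 4 of the 14 alternative settings. Sema3d measured 3.87 and 2.26 RPKM at P4, 5.12 and 1.49 at P10 and 0.993, 1.40 and 1.47 at P28. All P28 libraries were below the P4 libraries, with a change of -0.81 ± 0.49 (SE, adjusted p = 0.205, limma). Of the class 4 members, Sema4a, Sema4d, Sema4f and Sema4g changed by 0.68 to 1.23 without passing the test, and Sema3g by 0.85. Each of these 5 was above P4 in every P28 library, as were 79.3% of all promoter genes. Sema4f, Sema3g and Sema4d had negative changes after scaling to reads in peaks.

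Semaphorin receptors were read at the plexin promoters, since neither neuropilin had a promoter peak that met the rule. Of 7 plexins 4 rose and none fell from P4 to P28, beside 32.8% and 0.281% of all promoter genes, with a median change of 1.42 against 1.34. After scaling to reads in peaks 0 plexins were called higher and 2 lower, beside 6.98% and 3.33% of all. Plxnd1, the receptor of Sema3e, measured 3.70 and 3.24 RPKM at P4, 14.7 and 10.7 at P10 and 21.4, 17.7 and 22.1 at P28. Its ages did not overlap (change 2.25 ± 0.27 SE, adjusted p = 3.46e-04, limma), but the peak is 368 bases wide and held 3 and 2 reads at P4. A second promoter peak of Plxnd1, 1698 bases wide at a start site within the gene, measured 2.68 and 3.87 RPKM at P4, 8.51 and 8.36 at P10 and 4.02, 5.03 and 7.02 at P28, so that P10 was highest there. Plxna2, which binds class 6 semaphorins directly, measured 6.74 and 4.28 RPKM at P4, 14.8 and 18.6 at P10 and 19.1, 24.7 and 27.3 at P28. The ages were again separate, with a change of 1.94 ± 0.29 (SE, adjusted p = 9.03e-04, limma). The B-class receptors Plxnb1 and Plxnb2 changed by 1.85 and 1.42 and were at most 2.65 RPKM in the P4 libraries and at least 6.30 at P28.

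The other 3 plexins did not pass the test. Plxna4, which partners neuropilins and also reads Sema6a in the inner retina, measured 4.72 and 6.20 RPKM at P4, 2.34 and 2.05 at P10 and 2.73, 2.87 and 2.92 at P28. Both later ages lay below P4, with changes of -1.01 ± 0.38 (SE, adjusted p = 0.0670, limma) to P10 and -0.74 ± 0.35 (adjusted p = 0.112, limma) to P28. Plxna1 stayed between 3.22 and 4.08 RPKM in all 7 libraries at the peak used. A second promoter peak of Plxna1, 405 bases wide, was less even. It measured 2.24 and 2.95 RPKM at P4, from 2 reads each, 0 and 5.84 at P10 and 3.24, 4.25 and 8.96 at P28. Epha4, Ephb3 and Sema4b also had a second promoter peak, whose values are not given here. Plxnc1, the receptor of Sema7a, measured 2.50 and 2.98 RPKM at P4, 0.902 and 1.58 at P10 and 2.10, 2.21 and 2.42 at P28. Its P28 libraries were just below those of P4 and its P10 libraries were the lowest (change to P28 -0.20 ± 0.41 SE). Within the A class, 1 plexin therefore rose and 2 did not, and after scaling to reads in peaks Plxna1 and Plxna4 were called lower while the value of Plxna2 was 0.53.

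**Figure D4:**
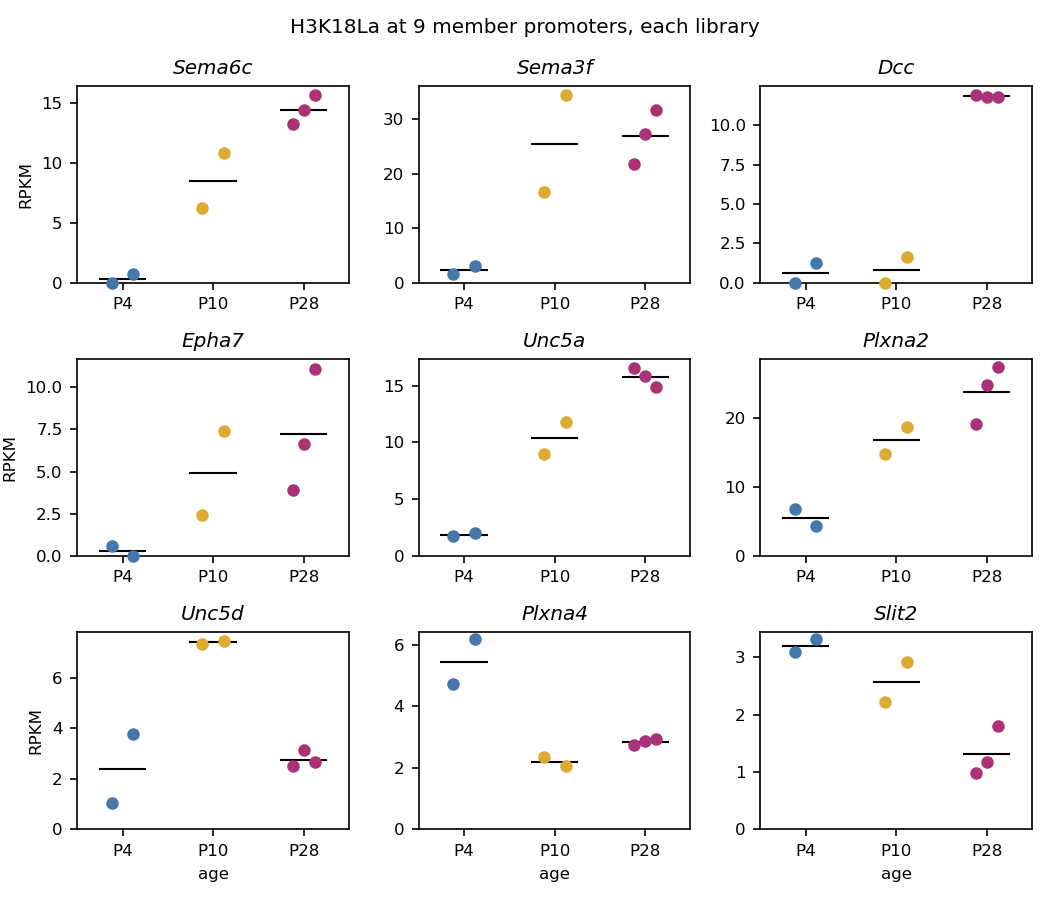
RPKM of H3K18La at the promoters of 9 members in each library, with a horizontal bar at the mean of each age and an axis of its own, from 0, for each gene. Sema6c, Unc5a and Plxna2 are ordered P4, P10, P28 without overlap, Dcc is high at P28 alone, Unc5d is highest at P10, and Plxna4 and Slit2 are highest at P4.

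None of the 3 ephrins passed the test on the deposited scale, beside 32.8% of all promoter genes called higher and 0.281% lower. After scaling to reads in peaks Efnb2 was called lower (-1.39, adjusted p = 0.00969, limma) and none higher, beside 3.33% and 6.98% of all. Efna1, a membrane-anchored ephrin, measured 1.43 and 0.627 RPKM at P4, 0 in both P10 libraries and 2.21, 1.81 and 1.82 at P28. P28 was above P4 in every library, but P4 was at the floor with 4 reads in all and the change of 0.56 ± 0.36 (SE) had an adjusted p of 0.226 (limma). Efnb2, which marks the dorsal retina during mapping, measured 4.33 and 3.65 RPKM at P4, 2.46 and 5.36 at P10 and 3.39, 3.09 and 4.70 at P28. The 3 ages overlapped, and its change was -0.09. Efnb1 measured 4.02 and 3.87 RPKM at P4 and 5.11, 6.45 and 6.11 at P28, a change of 0.47 that became -0.85 after scaling to reads in peaks.

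Of 7 Eph receptors 2 rose and none fell, close to the 32.8% of all promoter genes called higher, and the median change of 1.54 was near the 1.34 over all. With libraries scaled to reads in peaks 0 were called higher and 1 lower, beside 6.98% and 3.33% of all. Epha7, the receptor with the largest change of its family, measured 0.611 and 0 RPKM at P4, 2.43 and 7.42 at P10 and 3.88, 6.61 and 11.1 at P28. P4 was at the floor with 1 read against 139 at P28, a ratio of pooled rates of 20.8 (95% exact interval 3.68 to 829), and the change was 2.59 ± 0.53 (SE, adjusted p = 0.00412, limma). Its later ages overlapped. Ephb2, a receptor of ventral ganglion cells that reads B-class ephrins, measured 2.44 and 2.41 RPKM at P4, 5.66 and 9.88 at P10 and 8.22, 8.78 and 9.90 at P28. Every later library was above P4 (change 1.54 ± 0.32 SE, adjusted p = 0.00477, limma).

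Ephb3 and Epha10 had changes as large that did not pass. For Ephb3 they amounted to 1.80 ± 0.50 (SE, adjusted p = 0.0175, limma), from 3.56 and 3.51 RPKM at P4 to 13.0, 14.2 and 17.4 at P28, with P10 apart at 1.18 and 7.73. Epha10, a receptor with an inactive kinase domain, changed by 1.79 ± 0.45 (adjusted p = 0.0112, limma) from 1 read in all at P4. Limma voom on the recovered reads called both higher, as it did 52.6% of all promoter genes. Its values were 2.00 for Ephb3 (adjusted p = 5.97e-05, voom) and 2.90 for Epha10 (adjusted p = 2.17e-04, voom). Ephb6, like Epha10 without kinase activity, had the smallest change of the family. It measured 3.86 and 5.07 RPKM at P4, 3.29 and 5.27 at P10 and 3.03, 2.54 and 2.31 at P28. All P28 libraries lay below the other ages, with a change of -0.59 ± 0.36 (SE, adjusted p = 0.209, limma). Ephb1, the receptor of ganglion cell axons that turn to the same side of the brain, held between 1.15 and 1.76 RPKM in all libraries, and Epha4 between 1.58 and 5.26.

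By median RPKM, the Robo receptors had the lowest signal of the families in every P28 library. Slit2, the main repellent of ganglion cell axons together with Slit1, measured 3.09 and 3.32 RPKM at P4, 2.23 and 2.92 at P10 and 0.973, 1.18 and 1.81 at P28. The P28 libraries lay below both earlier ages. The change of -0.87 ± 0.41 (SE) did not pass the test (adjusted p = 0.111, limma), and passed it after scaling to reads in peaks at -2.06 (adjusted p = 0.00312). Slit1 measured 0.773 and 1.01 RPKM at P4, 3.07 and 8.04 at P10 and 1.78, 2.93 and 5.58 at P28. P4 was at the floor with 2 reads in all, and the later ages overlapped (change to P28 1.14 ± 0.50 SE, adjusted p = 0.0931, limma).

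Robo1 measured 2.08 and 4.78 RPKM at P4, 2.07 and 2.71 at P10 and 0.901, 1.69 and 0.988 at P28. Every P28 library was below every earlier one, with a change of -0.96 ± 0.46 (SE, adjusted p = 0.113, limma). Robo3, a divergent family member that controls crossing of the midline, measured 2.75 and 3.62 RPKM at P4, 0 and 1.59 at P10 and 0.530, 0.993 and 1.74 at P28. P4 was highest, but each P4 library held 3 reads, and the change of -1.04 ± 0.52 (SE), the lowest of all members, had an adjusted p of 0.131 (limma). Both Robos were called lower after scaling to reads in peaks and after quantile normalization, and neither by voom, where the adjusted p was 0.0548 for Robo1 and 0.0280 for Robo3.

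Of the 6 members of the netrin system 3 receptors rose and none fell, beside 32.8% and 0.281% of all promoter genes, and the ligand did not pass the test. Scaled to reads in peaks, 1 was called higher, Unc5a, and 1 lower, Ntn4, beside 6.98% and 3.33% of all, and quantile normalization gave 3 higher and 2 lower, beside 16.6% and 3.39%. Dcc, the attractive netrin receptor through which ganglion cell axons leave the eye (chr18:72350772-72351255), measured 0 and 1.23 RPKM at P4, 0 and 1.63 at P10 and 11.9, 11.8 and 11.8 at P28. The 4 earlier libraries held 2 reads together against 148 at P28. Of the libraries analysed here only those of P28 held enough reads for this peak to be called and enter the merged set, so the separation and the size of the change were partly fixed by that selection. The change from P4 was 3.10 ± 0.51 (SE, adjusted p = 0.00143, limma) with a ratio of pooled rates of 22.2 (95% exact interval 3.92 to 882). From P10 it was 2.99 ± 0.51 with an adjusted p of 0.0121 in limma, just short of the threshold.

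Unc5a, a repellent netrin receptor, measured 1.76 and 1.98 RPKM at P4, 9.00 and 11.8 at P10 and 16.6, 15.9 and 14.9 at P28. The ages did not overlap, and the change to P28 was 2.55 ± 0.28 (SE, adjusted p = 2.32e-04, limma). Unc5b, also a receptor of vascular tip cells, measured 1.27 and 1.33 RPKM at P4, 3.03 and 5.73 at P10 and 6.75, 6.77 and 8.02 at P28. Here too the ages were separate (change 1.83 ± 0.36 SE, adjusted p = 0.00330, limma), though after scaling to reads in peaks the value of 0.73 did not pass. Unc5c had the highest mean level of the members at P4, and at P10 it was level with Sema3f at a mean of 25.6 RPKM. It measured 12.1 and 9.66 RPKM at P4, 16.1 and 35.1 at P10 and 17.0, 18.2 and 20.0 at P28. Its change of 0.71 was not called, and was called lower after quantile normalization at -1.25 (adjusted p = 0.00274).

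Unc5d, a receptor that also binds FLRT adhesion proteins, was higher at P10 than at either other age. It measured 1.03 and 3.78 RPKM at P4, 7.35 and 7.49 at P10 and 2.49, 3.14 and 2.66 at P28. Both P10 libraries were above all others, with P28 minus P10 at -1.17 ± 0.42 (SE, adjusted p = 0.0905, limma) and P10 minus P4 at 1.44 ± 0.46 (adjusted p = 0.0357, limma), so limma called neither step. With voom on the recovered reads the rise from P4 to P10 was called, at 1.95 (adjusted p = 0.00691), and the step to P28 was not, at -1.41 (adjusted p = 0.0132). Ntn4, a netrin related to laminins, measured 3.06 and 3.68 RPKM at P4, 2.03 and 2.21 at P10 and 2.35, 2.03 and 2.62 at P28. Both later ages were below P4, with a change to P28 of -0.39 ± 0.38 (SE, adjusted p = 0.418, limma).

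The order of the members by level changed with age. At P4 the highest means were those of Unc5c (10.9 RPKM) and Plxna2 (5.51), and at P28 those of Sema3f (26.9 RPKM), Plxna2 (23.7) and Sema4c (21.0), followed by Plxnd1 (20.4) and Unc5c (18.4). The P28 libraries of each of these 5 overlapped with those of its neighbour in this order. Plxna4 and Ephb6, next in the order at P4, were at most 2.92 and 3.03 RPKM in the P28 libraries.

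Peaks outside the promoter gave a second reading of the same genes, which the choice of members did not use. Each was assigned to its gene by the authors' annotation. The members had 366 such peaks, of which 48 rose and 15 fell from P4 to P28, against 16.6% and 4.84% of all 91109 peaks outside promoters. Their median change was 0.33, against 0.54 over all, and -0.79 against -0.44 after scaling to reads in peaks, where 14 were called higher and 63 lower, against 6.96% and 16.8%. In introns 34 of 260 peaks rose and 12 fell, against 19.5% and 3.01% of all intronic peaks, with medians of 0.33 and 0.76. The 63 calls moved with single libraries, to 16 without P4 replicate 1 and 23 without P4 replicate 2, to 36, 24 and 27 without P28 replicates 1, 2 and 3, and to 102 and 105 without P10 replicates 1 and 2.

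Genes that rose at the promoter differed in these peaks. Over all peaks outside promoters 62.9% had a positive change, 16.6% rose and 4.84% fell. Of 34 other peaks of Ephb2 33 had a positive change and 10 rose, and of 39 of Plxna2 28 were positive, 14 rose and 2 fell. All 8 other peaks of Sema3f were positive and 5 rose. The largest rise lay in an intron of Unc5a (chr13:54954433-54956564), from 0.852 and 0.840 RPKM at P4 and 4.23 and 5.18 at P10 to 19.9, 19.3 and 18.6 at P28. The ages did not overlap there, and the change of 3.45 ± 0.29 (SE, adjusted p = 1.15e-04, limma) was larger than at the promoter of Unc5a. An intronic peak of Plxna2 (chr1:194686417-194687195) rose by 3.25 ± 0.37 and an exonic peak of Sema4c (chr1:36549585-36551245) by 3.08 ± 0.36. At Ephb2 an intergenic peak 8729 bases before the TSS (chr4:136844717-136845710) rose by 2.75 ± 0.48, from 2 reads at P4 to 232 at P28. The peaks named here for Plxna2 and Sema4c held 4 reads each at P4, and that of Unc5a 7. A peak had to be called at some age to be in the merged set, so the direction of these rises was partly fixed by that selection.

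Peaks of Dcc and Robo1 outside the promoter mostly had negative changes, for Dcc against the direction of its promoter and for Robo1 along with it. Over all peaks outside promoters 62.9% were positive. Those of Unc5c (2 of 13 positive, promoter change 0.71) and Efnb1 (1 of 9 positive, promoter change 0.47) were also mostly negative. All 24 other peaks of Dcc were intronic; 7 had a positive change, 2 rose, 3 fell and the median was -0.89, while the promoter change was 3.10. One of those that fell (chr18:71725668-71725962) held 3 reads at P4, at 3.08 and 2.02 RPKM, and 0 at P10 and P28. Of the libraries analysed here only those of P4 held reads under it, so its place in the merged set came with its direction, and its fall is no independent reading. Of 13 other peaks of Robo1 1 had a positive change, 4 fell and 1 rose, with a median of -1.11 beside the promoter change of -0.96. An intronic peak of Robo1 (chr16:72523521-72524016) measured 1.83 and 6.02 RPKM at P4, 0 and 1.59 at P10 and 0, 0.248 and 0 at P28. It held 7 reads at P4 and 2 at P28 (change -2.05 ± 0.50 SE, adjusted p = 0.00970, limma). With so few reads at the later ages, its direction too was partly fixed by its entry into the merged set. These falls rest on few reads in the P4 libraries. There the share of the normalized library size outside peaks was also highest, and the part of that background in these falls was not tested.

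**Figure D5:**
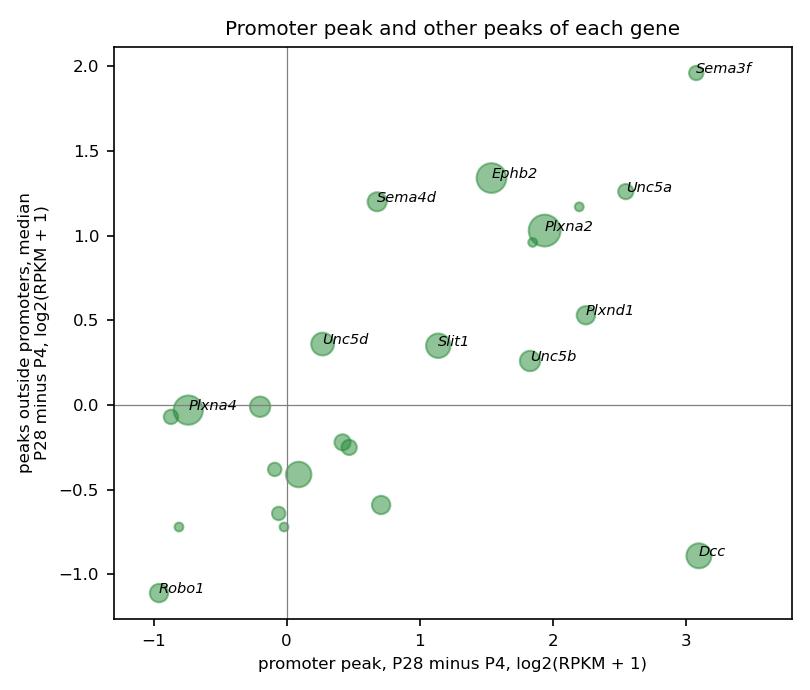
Change from P4 to P28 at the promoter peak (horizontal) and median change of the peaks outside promoters (vertical) for the 24 members with at least 3 such peaks, both on the log2(RPKM + 1) scale, with the area of a circle set by the number of peaks. Sema3f and Unc5a lie at the upper right, Robo1 at the lower left, and Dcc is alone at the lower right with a promoter change of 3.10 and a median of -0.89.

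Other genes of the guidance pathway were read at their promoters in the same fit. Of 32 further guidance cues, receptors and adhesion molecules 21 had a promoter peak; 5 rose and none fell from P4 to P28, beside the 32.8% of all promoter genes called higher, with a median change of 0.80 against 1.34 over all. The 5 were Cdon, Dscaml1, Ptch1, Neo1 and Ryk. Cdon, a co-receptor of hedgehog signals, went from 7.84 and 6.18 RPKM at P4 to 39.8, 43.6 and 49.0 at P28, and Dscaml1, an adhesion molecule that spaces retinal neurons, from 2.21 and 3.62 to 23.7, 23.9 and 26.9. Neo1, the receptor of netrins and RGMs related to Dcc, changed by 1.85. Of 41 genes of the signalling machinery inside the growth cone 37 had a promoter peak; 15 rose and none fell, beside the same 32.8%, with a median of 1.40. Among them were Ablim1 (2.82), which binds actin, Arhgef12 (2.47), which binds B-class plexins, and Dpysl3 (2.19), a mediator of semaphorin signals. After scaling to reads in peaks, 2 guidance genes of the first list were called higher and 1 lower, and 1 and 2 of the second, beside 6.98% and 3.33% of all promoter genes. Together the lists held 20 calls, which became 6 and 10 without P4 replicates 1 and 2, 12, 10 and 11 without P28 replicates 1, 2 and 3, and 35 without either P10 library.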

How the data were processed

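H3K18La CUT&Tag was measured in 7 libraries of mouse retina at 3 ages. The authors mapped reads to GRCm38, called peaks with MACS, merged those found in 2 or more replicates, annotated peaks with ChIPseeker (version 1.34.1; promoter from 1000 bases before to 500 bases after the TSS) and deposited RPKM per merged peak, normalized on windows of 10000 bases. The deposited edgeR (version 3.40.2) table of fold changes was not used. Within a library, 100.0% of the deposited RPKM values, multiplied by width, were integer multiples of 1 step (tolerance 0.01), which gave reads per peak and the normalized library size. Intervals and floors cover counting error only, since reads carried no molecular identifiers.

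The test was limma (version 3.58.1 in R 4.3.3) with a variance trend on log2(RPKM + 1), all 7 libraries in 1 fit of 108253 peaks without covariates, each pair of ages as a contrast. The threshold was an adjusted p under 0.01 (Benjamini-Hochberg). Changes on this scale understate those of low peaks. The members, gene lists and tests were chosen with earlier results of these data known. Library values are given for members of a list of retinal guidance genes called between any ages, the largest and smallest change of each family, the 3 highest at P28 and all with a negative change; other members given with values were chosen after these were seen. Alternatives were a pseudocount of 0.1, scaling to reads in peaks, quantile normalization, at least 10 reads per peak, voom on recovered reads, thinning to the smallest library, a replicate block, leaving out each library, an adjusted p under 0.05 and the strongest promoter peak.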

Additional observations from a re-analysis of the deposited data

How the results depend on the processing

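The number of members called from P4 to P28 (13) fell to 2 with all libraries thinned to the smallest and ranged from 4 to 16 with a library left out. From P4 to P10 (6) it was 3 after quantile normalization, 10 with voom, 0 after thinning, 17 at an adjusted p under 0.05 and 0 to 12 with a library left out. From P10 to P28 (0) it was 2 with voom, 1 after thinning, 4 at an adjusted p under 0.05 and 0 to 3 with a library left out. Peaks outside promoters (63 called) gave 34 with a pseudocount of 0.1, 112 with voom, 16 after thinning, 119 at an adjusted p under 0.05 and 16 to 105 with a library left out. The pathway lists (20 called) gave 6 after scaling to reads in peaks, 8 after quantile normalization, 36 with voom, 9 after thinning, 36 at an adjusted p under 0.05 and 6 to 35 with a library left out. The median member change from P4 to P28 (0.85) was 1.42 with a pseudocount of 0.1, -0.06 after scaling to reads in peaks and 0.33 after quantile normalization, with 0.81 to 0.99 when a library was left out. From P4 to P10 (0.52) it was -0.34, -0.06 and, thinned, 1.00, with 0.32 to 0.94 when a library was left out, and from P10 to P28 (0.22) -0.04 to 0.44, the lowest without P10 replicate 1. The level of members against all genes (-0.60) was -0.81 with a pseudocount of 0.1, -0.79 after quantile normalization and -0.44 after thinning, and -0.71 to -0.49 with a library left out. Among these alternatives, the share of all promoter genes called was counted only for scaling to reads in peaks, quantile normalization and voom. Over all peaks outside promoters it was counted only for scaling. Whether the other counts moved more for the members than for all genes was not tested. Causes were not tested, and a lone library left at an age was assumed to vary like the others. Deviations of same-numbered libraries from the mean of their age correlated between ages at -0.001 to 0.047. With so few libraries and reads per peak, these values cannot decide whether replicate numbers pair the libraries. With a replicate block, 8 members were called from P4 to P28, 6 from P4 to P10 and 0 from P10 to P28, with 33 other peaks and 13 pathway genes. For the 22 members that the naming rule chose, 250 of 308 alternative values kept their side of the threshold, 44 lost a call and 14 gained one, and no called value changed direction.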
